A study of Mus musculus with 6 samples.

Results

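The genes that build, load and switch on MHC class II in alveolar macrophages (AMs) were compared between CD44+/+ and CD44-/- mice. They are 10 genes, taken by name from the 24340 genes with a value in every sample. They comprise Cd74, the class II chains H2-Aa, H2-Ab1 and H2-Eb1, the peptide exchange genes H2-DMa, H2-DMb1, H2-DMb2, H2-Oa and H2-Ob, and Ciita. AMs are the resident macrophages of the lung airspaces. Cells were lavaged from the lungs of naive female C57BL/6 mice of 6 to 10 weeks, and the only difference between the groups given by the labels is the genotype, CD44+/+ or CD44-/-. Each genotype had 3 samples, each a pool of mice, so that error is the spread between pools. The methods give pools of unequal size and name the largest first in each genotype, but no label ties a pool size to a replicate number. Red cells were lysed. The methods name no sort of the lavage cells, and state that those of naive mice were almost all AMs. The CD44-/- genotype was that of the whole mouse and not of AMs alone.

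MHC class II is an alpha and beta chain pair that shows peptides from endosomes to CD4+ T cells. New pairs are held by the invariant chain, encoded by Cd74, until the chain is digested in the endosome. H2-DM then helps to exchange the remaining invariant chain piece for antigen peptide, and H2-O restrains H2-DM. Transcription of all these genes depends largely on the class II transactivator CIITA, which binds no DNA itself but is recruited by factors on the X and Y boxes of the promoters. Resting AMs carry less class II than dendritic cells. The protein CD74 is also a receptor for the cytokine MIF, for which CD44 serves as a signaling partner.

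The H2 genes lie together on chromosome 17 of mm10, from H2-Oa (34083843 to 34095309) to H2-Eb1 (34305867 to 34316674). H2-DMb2 (34145416 to 34151095) and H2-DMb1 (34153191 to 34160229) are neighbours. H2-Ab1 (34263227 to 34269418) and H2-Aa (34282751 to 34287771) stand beside H2-Eb1. Ciita is on chromosome 16 from 10480072 to 10527640, and Cd74 also lies outside the class II cluster.

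Promoters of 7 of the 10 genes, without Cd74, H2-Ab1 and Ciita, were read from RefSeq (GRCm38.p6, the assembly of mm10). Each had 300 bases from 250 before to 50 after a listed start. They are shown for H2-Aa and H2-Eb1, which had nearly the same pattern over the samples, and for the paralogs H2-DMb1 and H2-DMb2, which did not. Capitals mark matches, on either strand, to AGNNACNGA, the core of the X box, and to ATTGG, the Y box or inverted CCAAT. All sequences run 5′ to 3′ on the strand of the gene. H2-Aa is at chr17:34287774-34288073 on the minus strand. H2-Eb1 is at chr17:34305617-34305916, H2-DMb1 at chr17:34152941-34153240 and H2-DMb2 at chr17:34144999-34145298, all on the plus strand.
H2-Aa: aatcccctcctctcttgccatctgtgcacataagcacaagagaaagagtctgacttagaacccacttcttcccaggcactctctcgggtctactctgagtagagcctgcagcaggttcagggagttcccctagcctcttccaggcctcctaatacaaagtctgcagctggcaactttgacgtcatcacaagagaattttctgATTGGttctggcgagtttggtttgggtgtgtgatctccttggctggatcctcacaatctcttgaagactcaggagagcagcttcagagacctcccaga
H2-Eb1: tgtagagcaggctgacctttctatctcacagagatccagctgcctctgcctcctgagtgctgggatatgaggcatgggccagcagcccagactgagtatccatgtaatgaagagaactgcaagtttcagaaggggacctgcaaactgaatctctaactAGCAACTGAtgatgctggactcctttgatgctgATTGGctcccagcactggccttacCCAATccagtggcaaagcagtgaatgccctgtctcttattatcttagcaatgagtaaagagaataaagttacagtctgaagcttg
H2-DMb1: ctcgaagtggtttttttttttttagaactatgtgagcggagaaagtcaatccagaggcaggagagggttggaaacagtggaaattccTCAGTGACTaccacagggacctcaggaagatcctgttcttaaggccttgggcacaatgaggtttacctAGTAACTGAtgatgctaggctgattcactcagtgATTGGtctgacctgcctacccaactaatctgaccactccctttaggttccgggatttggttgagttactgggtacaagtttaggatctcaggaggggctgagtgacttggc
H2-DMb2: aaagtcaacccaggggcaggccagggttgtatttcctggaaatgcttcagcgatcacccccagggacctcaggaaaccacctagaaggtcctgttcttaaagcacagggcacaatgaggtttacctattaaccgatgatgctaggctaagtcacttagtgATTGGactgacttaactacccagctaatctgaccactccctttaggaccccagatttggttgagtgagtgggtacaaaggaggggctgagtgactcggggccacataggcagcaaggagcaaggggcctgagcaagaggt

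The 7 genes had 8 promoters, 2 of them of H2-DMa. A Y box match was found in 7 of the 8, against 37.4% of 32851 RefSeq promoters of the same length. For H2-DMa it was in the promoter of the inner start and not in that of the outer one. An X box core match on either strand was found in 4 of the 8, those of H2-Eb1, H2-DMb1, H2-Oa and H2-Ob, against 17.7% of all promoters. In H2-Eb1 the X box core began 92 bases before the start and the Y box 59 bases before it, with 24 bases between them. In H2-DMb1 they began 95 and 61 bases before the start, with 25 bases between them. The matches of H2-Oa began 187, 141 and 4 bases before the start, the first and last on the opposite strand, and its Y box 43 bases before it. The only match of H2-Ob was on the opposite strand and began after the start. An X box core followed by a Y box on the gene strand after 15 to 30 bases was present in 29 of all promoters (0.0883%). This range was set after these positions were seen. Of the members read, H2-Eb1 and H2-DMb1 had such a pair, and H2-Oa and H2-Ob did not. H2-Aa had its Y box 48 bases and H2-DMb2 90 bases before the start, and the 9 letters searched for the X box were not in either window.

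Cd44 had 527 to 540 FPKM in the CD44+/+ samples and 51.4 to 54.7 FPKM in the CD44-/- samples, a log2 fold change of -3.32 (standard error 0.05) in the direction the labels give. FPKM counts fragments relative to transcript length and to the depth of the library. Sums of FPKM lay between 487901 and 504182. The spacing of the lowest values put the depth of the samples at 0.814 to 1.05 times that of CD44+/+ replicate 1, with CD44-/- replicate 2 the lowest, while absolute depth is unknown. The AM markers Siglecf, Itgax and Marco were expressed in every sample, at 243 to 268, 435 to 495 and 264 to 532 FPKM. Of 14 AM markers 4 had an unadjusted p under 0.05, 2 in each direction, and none had an adjusted p under 0.05 (lowest 0.185).

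Cd74 was the most abundant of the genes, with 646, 552 and 506 FPKM in CD44+/+ replicates 1, 2 and 3. The CD44-/- samples had 622, 1187 and 927 FPKM. CD44-/- replicate 1 thus lay within the CD44+/+ range, and CD44-/- replicates 2 and 3 lay above it, at 2.09 and 1.63 times the CD44+/+ mean. If the replicates are numbered as the methods list the pools, replicate 1 held the most mice, and the part of pool size in this split was not tested.

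H2-Aa, the alpha chain of the I-A molecule, had 193, 154 and 142 FPKM in CD44+/+ AMs and 176, 364 and 266 FPKM in CD44-/- AMs. H2-Ab1, its beta chain, had 157, 124 and 114 FPKM in CD44+/+ AMs and 136, 282 and 211 FPKM in CD44-/- AMs. H2-Eb1, another class II beta chain, had 54.2, 43.8 and 42.3 FPKM in CD44+/+ AMs and 52.2, 105 and 75.9 FPKM in CD44-/- AMs. The same split was seen in all 3 chains. CD44-/- replicate 1 was between the CD44+/+ values, replicate 3 was 1.60 to 1.63 times and replicate 2 was 2.14 to 2.25 times the CD44+/+ mean. The genotypes therefore overlapped in each of these 4 genes.

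**Figure D1:**
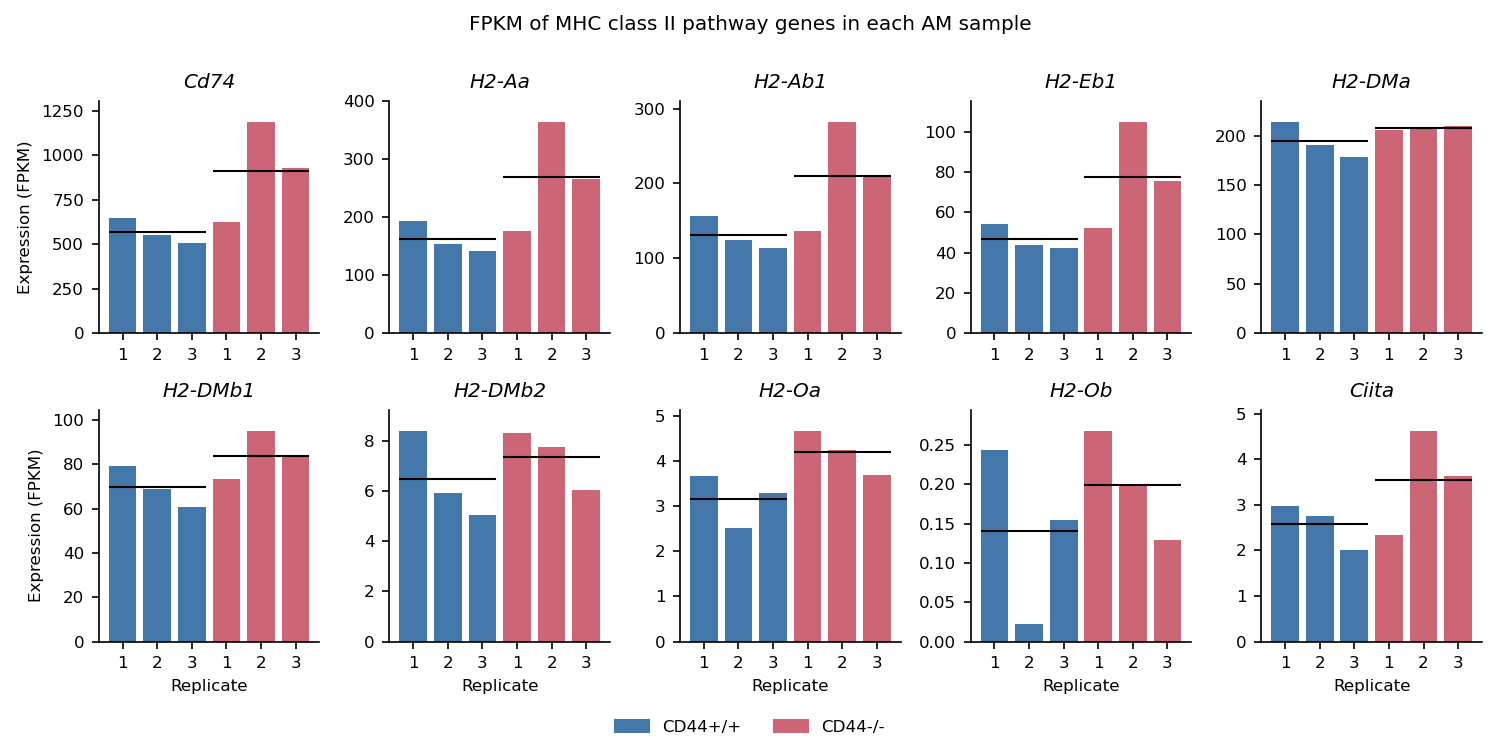
Expression in FPKM (vertical axes, each from 0) of the 10 genes in CD44+/+ (blue) and CD44-/- (red) AM samples, with bars for single samples and black lines for genotype means. In Cd74, H2-Aa, H2-Ab1 and H2-Eb1 CD44-/- replicates 2 and 3 stand above the others, while H2-DMa is level at 179 to 214 FPKM.

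On the scale log2(FPKM + 0.1), the log2 fold change of CD44-/- over CD44+/+ was 0.64 for Cd74 (standard error 0.20, 95% confidence interval 0.18 to 1.11, adjusted p = 0.470, limma). It was 0.67 for H2-Aa (standard error 0.23, interval 0.14 to 1.20, adjusted p = 0.504), 0.62 for H2-Ab1 (adjusted p = 0.562) and 0.68 for H2-Eb1 (adjusted p = 0.473). Over all settings tried, these 4 log2 fold changes stayed positive. An exact two-sided permutation test gave p = 0.2 for each of the 4 genes, where 3 samples against 3 cannot give less than 0.1. Of all genes tested, 1.72% had a log2 fold change as far from 0 as that of H2-Ab1.

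The lowest of these values came without CD44-/- replicate 2, at 0.43 for Cd74, 0.42 for H2-Aa, 0.38 for H2-Ab1 and 0.44 for H2-Eb1. Without CD44-/- replicate 1 they were 0.89, 0.94, 0.90 and 0.94, with adjusted p of 0.0575, 0.0715, 0.0745 and 0.0618. No sample left out, and no other setting, brought a gene of the list to an adjusted p under 0.05.

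H2-DMa, the alpha chain of the exchange factor H2-DM, had 214, 191 and 179 FPKM in CD44+/+ AMs and 206, 209 and 210 FPKM in CD44-/- AMs. The CD44-/- samples were almost equal and lay within the CD44+/+ range. Its log2 fold change was 0.10 (interval -0.05 to 0.25, adjusted p = 0.841, limma). It was 0.04 without CD44+/+ replicate 3, and 0.17 without CD44+/+ replicate 1, where the unadjusted p was under 0.05 (adjusted p = 0.245). H2-DMb1, a beta chain of H2-DM, had 79.4, 68.9 and 60.8 FPKM in CD44+/+ AMs and 73.5, 95.2 and 83.2 FPKM in CD44-/- AMs. Here CD44-/- replicates 2 and 3 were again the highest samples, at 1.37 and 1.19 times the CD44+/+ mean. Its log2 fold change was 0.27 (standard error 0.11, interval 0.01 to 0.53, adjusted p = 0.642), with an unadjusted p of 0.0447 that was 0.0563 with the replicate number as a block. Without CD44-/- replicate 2 or CD44+/+ replicate 3 it was 0.17, and the unadjusted p was not under 0.05, nor was it without CD44+/+ replicate 2 (0.26) or CD44-/- replicate 3 (0.27).

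H2-DMb2, the other beta chain, was at 0.0728 to 0.113 times the FPKM of H2-DMb1, with 8.42, 5.94 and 5.07 FPKM in CD44+/+ AMs and 8.32, 7.76 and 6.06 FPKM in CD44-/- AMs. Replicate 1 was the highest of each genotype, unlike in H2-DMb1. The log2 fold change was 0.21 (interval -0.22 to 0.63, adjusted p = 0.923, limma). It was 0.05 without CD44+/+ replicate 3, 0.11 without CD44-/- replicate 1 and 0.34 without CD44-/- replicate 3. Without CD44+/+ replicate 1 it was 0.41, with an unadjusted p under 0.05 (adjusted p = 0.324). Reads from the sequence that both genes share are hard to separate. Of the 42-base windows in coding transcripts of H2-DMb1, 31.1% were also found in H2-DMb2, and of those of H2-DMb2 24.4% were found in H2-DMb1. For the other 8 members, 0 to 0.619% of the windows were shared with any other gene. With the values of both genes summed the log2 fold change was 0.27 (adjusted p = 0.645).

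H2-Oa, a chain of the H2-DM inhibitor H2-O, had 3.66, 2.52 and 3.28 FPKM in CD44+/+ AMs and 4.67, 4.24 and 3.68 FPKM in CD44-/- AMs. It was the only member tested whose genotypes did not overlap, by a margin of 3.68 against 3.66 FPKM. By limma its log2 fold change came to 0.41, with a standard error of 0.15 and an adjusted p of 0.554. Without CD44+/+ replicate 2 this was 0.26, and its unadjusted p was no longer under 0.05, as was also so without CD44-/- replicate 1 (0.33) or 2 (0.40). Replicate 1, the lowest of the CD44-/- samples for the class II chains, was the highest for H2-Oa. H2-Ob, the partner chain, was below the 0.5 FPKM needed for the test, with 0.244, 0.022 and 0.154 FPKM in CD44+/+ AMs and 0.268, 0.199 and 0.129 FPKM in CD44-/- AMs.

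Ciita, the transactivator gene, had 2.98, 2.75 and 2.01 FPKM in CD44+/+ AMs and 2.34, 4.62 and 3.63 FPKM in CD44-/- AMs. The order of the CD44-/- samples was that of the class II chains, with replicate 2 at 1.79 times and replicate 3 at 1.41 times the CD44+/+ mean and replicate 1 within the CD44+/+ range. Its log2 fold change was 0.40 (standard error 0.24, interval -0.15 to 0.96, adjusted p = 0.809, limma). Single samples moved this value, to 0.19 without CD44-/- replicate 2, 0.24 without CD44+/+ replicate 3 and 0.67 without CD44-/- replicate 1, where the unadjusted p was under 0.05 (adjusted p = 0.298).

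**Figure D2:**
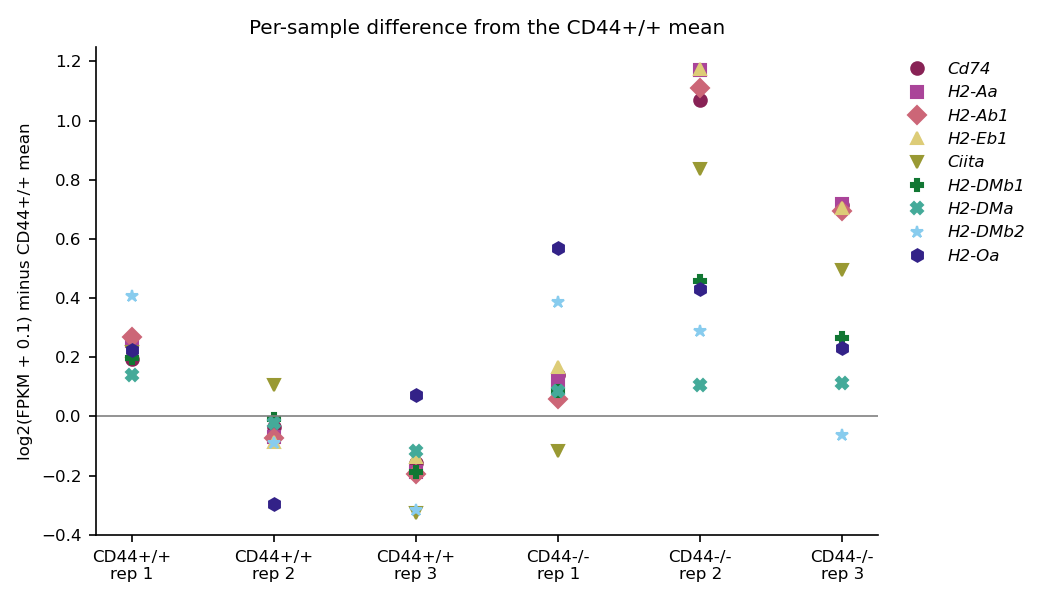
Difference of log2(FPKM + 0.1) from the CD44+/+ mean of each gene (vertical axis) in the 6 samples (horizontal axis), with one symbol per gene for the 9 genes tested. Cd74, H2-Aa, H2-Ab1 and H2-Eb1 fall almost on one another in each sample and averaged 0.12, 1.13 and 0.71 in CD44-/- replicates 1, 2 and 3.

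None of the 9 members tested had an adjusted p under 0.05 (limma), against 12 of all 10800 genes tested (0.111%). Adjusted p ranged from 0.470 to 0.923, and from 0.394 to 0.694 with the replicate block. An unadjusted p under 0.05 was reached by 6 members, Cd74, H2-Aa, H2-Ab1, H2-Eb1, H2-DMb1 and H2-Oa, while 7.69% of all genes reached it. These 6 were all higher in CD44-/- AMs, as were 4.75% of all genes, and 2.94% were lower. Among genes with an unadjusted p under 0.05, 513 of 831 were higher with the values as deposited. This was 478 of 898 once samples were scaled by median ratios, and 455 of 901 once their distributions were made equal by quantiles. Under these scalings 6 and 5 members, all higher, had an unadjusted p under 0.05. The median log2 fold change was 0.41 over the 9 members and 0.01 over all genes tested. With single samples left out the median over the members was 0.38 (without CD44-/- replicate 2) to 0.67 (without CD44-/- replicate 1).

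The number of members with an unadjusted p under 0.05 rested on single samples. It was 2 without CD44+/+ replicate 2, 1 without CD44+/+ replicate 3, 2 without CD44-/- replicate 2 and 3 without CD44-/- replicate 3. Without CD44+/+ replicate 1 it was 8, and without CD44-/- replicate 1 it was 6. No overlap between genotypes was found in 1 of the 9 members, against 11.6% of all genes, and 6.75% of all genes were without overlap and higher in CD44-/- AMs.

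**Figure D3:**
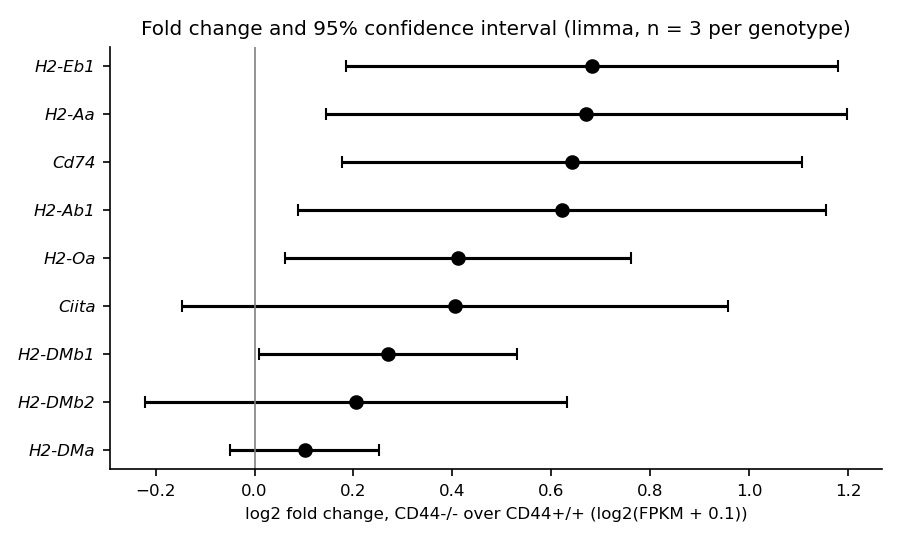
Log2 fold change of CD44-/- over CD44+/+ AMs (horizontal axis, points) with 95% confidence intervals (bars) from limma for the 9 genes tested, 3 samples per genotype. The intervals of H2-DMa, H2-DMb2 and Ciita include 0, and no gene passed after adjustment over all 10800 genes.

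The median standard deviation of log2 values among the CD44-/- samples was 0.51 for Cd74, H2-Aa, H2-Ab1 and H2-Eb1, and 0.09 over all genes tested. Among the CD44+/+ samples it was 0.21 and 0.10. For H2-DMa it was 0.01 among the CD44-/- samples and 0.13 among the CD44+/+ samples.

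Cd74, H2-Aa, H2-Ab1 and H2-Eb1 varied together. Pearson's r between pairs of them was 0.994 to 0.999 over the 6 samples, and 0.993 to 0.999 after each genotype was centred on its mean. Ciita had an r of 0.925 to 0.955 with these genes and H2-DMb1 of 0.937 to 0.953. For H2-DMa it was 0.649 to 0.675, for H2-Oa 0.478 to 0.539 and for H2-DMb2 0.358 to 0.394. After centring, r was 0.934 to 0.963 for Ciita, 0.889 to 0.916 for H2-DMb1, 0.423 to 0.487 for H2-DMa, 0.127 to 0.194 for H2-DMb2 and -0.13 to -0.03 for H2-Oa. These values describe 6 samples whose genes share a library, and were not tested. Since RNA was measured in bulk, more cells with class II and more class II RNA per cell cannot be told apart.

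Ratios within a sample do not depend on its depth. Cd74 was 3.35, 3.58 and 3.56 times H2-Aa in the CD44+/+ samples and 3.54, 3.26 and 3.49 times in the CD44-/- samples. H2-Eb1 was 0.281 to 0.298 times H2-Aa in all 6 samples. In both ratios the genotypes overlapped, with p = 0.5 and 0.7 by exact permutation (two-sided). H2-Ab1 relative to H2-Aa was 0.803 to 0.813 in CD44+/+ and 0.773 to 0.793 in CD44-/- AMs, and Ciita relative to H2-Aa was 0.0142 to 0.0179 and 0.0127 to 0.0137. Both were lower in every CD44-/- sample (p = 0.1 each, the smallest possible in the exact permutation test, and 0.35 adjusted over 7 ratios).

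H2-DMa exceeded H2-Aa in the CD44+/+ samples, at 1.11, 1.24 and 1.26 times its FPKM, and in CD44-/- replicate 1 at 1.17 times. In CD44-/- replicates 2 and 3 the ratio was 0.574 and 0.789. CD44-/- replicate 1 thus fell among the CD44+/+ samples, and exact permutation gave p = 0.2, or 0.467 adjusted over the 7 ratios. H2-DMb1 relative to H2-DMa was 0.340 to 0.371 in CD44+/+ AMs and 0.357, 0.456 and 0.396 in CD44-/- AMs (p = 0.3 in the exact test). H2-DMb2 relative to H2-DMb1 was 0.0834 to 0.106 and 0.0728 to 0.113 (p = 0.8 in the exact test).

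**Figure D4:**
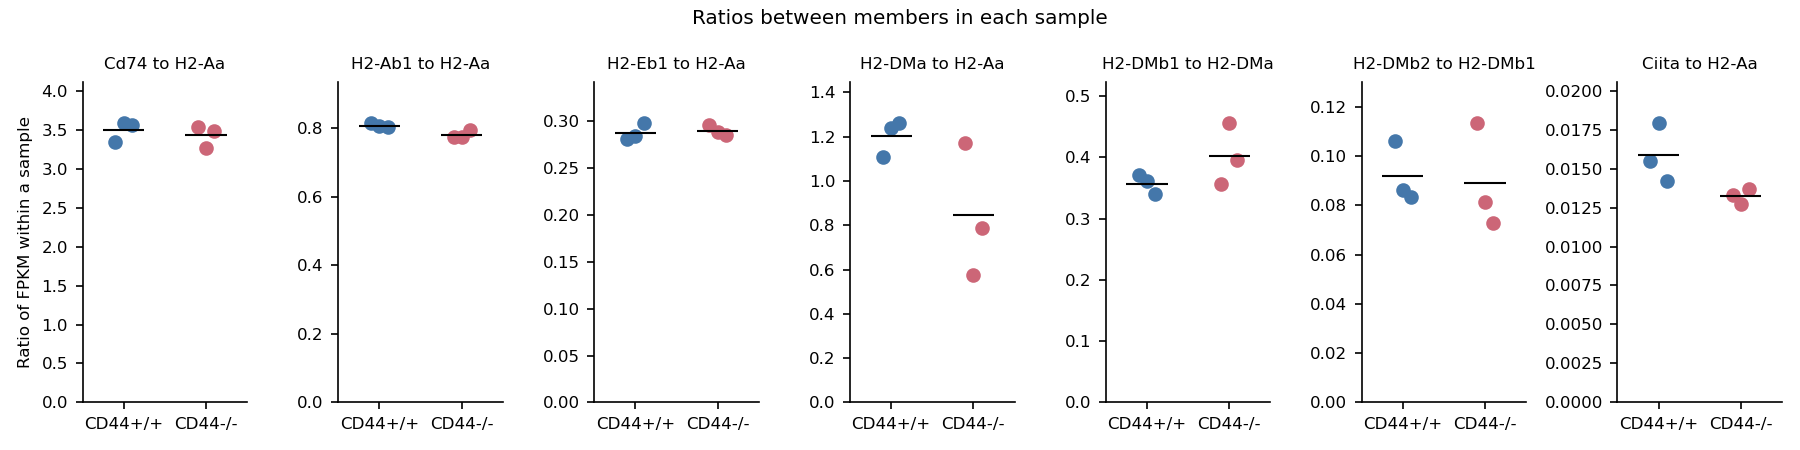
Ratios of FPKM between members within a sample (vertical axes, each from 0) for CD44+/+ (blue) and CD44-/- (red) AMs, with points for samples and lines for means. Cd74 to H2-Aa stays between 3.26 and 3.58, while H2-DMa to H2-Aa drops to 0.574 in one CD44-/- sample.

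Over the 6 samples the mean FPKM ran from Cd74 (740.1) over H2-Aa (216), H2-DMa (201.5), H2-Ab1 (171), H2-DMb1 (76.8), H2-Eb1 (62.2), H2-DMb2 (6.93), H2-Oa (3.68) and Ciita (3.06) to H2-Ob (0.169). The ranges of neighbours in this order overlapped for H2-Aa and H2-DMa, H2-DMa and H2-Ab1, H2-DMb1 and H2-Eb1, and H2-Oa and Ciita. H2-Aa was above H2-DMa in 2 of 6 samples, CD44-/- replicates 2 and 3. Of the other class II genes, H2-Eb2 had 0.033 to 0.176 FPKM and H2-Ea-ps was listed at 0 in every sample.

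Genes that act with the members were compared by list. Of 17 genes of class II transcription, 1 had an unadjusted p under 0.05 and was higher and 1 was lower, and the median log2 fold change was 0.02. Rfxap, a subunit of the RFX complex on the X box, had 5.53, 4.15 and 3.62 FPKM in CD44+/+ AMs and 6.13, 5.59 and 5.56 FPKM in CD44-/- AMs (log2 fold change 0.39, adjusted p = 0.560, limma). Prdm1, which encodes the repressor Blimp-1, had 7.08, 8.47 and 7.08 FPKM in CD44+/+ AMs and 5.65, 6.22 and 5.11 FPKM in CD44-/- AMs (log2 fold change -0.41, adjusted p = 0.359). For the RFX subunit Rfx5 the log2 fold change was -0.05, and for the myeloid factor Spi1, at 359 to 410 FPKM, it was 0.06.

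Of 11 genes tested from the interferon gamma pathway to Ciita, Socs1 alone had an unadjusted p under 0.05, and 2 genes did with the replicate block. Socs1, a feedback inhibitor of cytokine signaling, had 0.877, 0.580 and 0.229 FPKM in CD44+/+ AMs and 1.34, 1.66 and 0.928 FPKM in CD44-/- AMs (log2 fold change 1.19, adjusted p = 0.486, limma). Irf1, a factor that acts on the Ciita promoter, had a log2 fold change of -0.09. The cytokine gene Ifng was listed at 0 in 5 of the 6 samples. Among 13 genes of endosomal antigen processing 1 had an unadjusted p under 0.05, Ctss, the protease that degrades the invariant chain. It had 3512, 3365 and 3391 FPKM in CD44+/+ AMs and 4356, 3626 and 4021 FPKM in CD44-/- AMs (log2 fold change 0.22, adjusted p = 0.499). Other genes of this list had log2 fold changes down to -0.06.

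Of 13 genes of class II transport and turnover, 1 had an unadjusted p under 0.05, the tetraspanin Cd63 (log2 fold change 0.40, adjusted p = 0.615, limma), with overlapping genotypes. March1, the ligase that ubiquitinates class II, had a log2 fold change of -0.003. Of 6 costimulatory genes tested, 1 had an unadjusted p under 0.05, or 2 with the replicate block. It was Cd80, a ligand of CD28, which had 10.6, 9.30 and 9.55 FPKM in CD44+/+ AMs and 12.2, 11.2 and 11.2 FPKM in CD44-/- AMs (log2 fold change 0.23, adjusted p = 0.484), while for Cd86 the log2 fold change was -0.07. The gene added by the block was Cd274, which was lower (log2 fold change -0.22, adjusted p = 0.236 with the block, limma). Of 5 ligands and partners of CD74 tested, Cd44 was the 1 with an unadjusted p under 0.05, against 3 with the replicate block. The ligands Mif and Ddt had log2 fold changes of -0.03 and 0.02, and the partner Cxcr4 had 0.39 (adjusted p = 0.774, limma). Cxcr4 is 1 of the genes whose call at the unadjusted threshold changed with the block, where its adjusted p was 0.116. Of 10 genes tested that lie in or near the class II region but are no class II genes, such as Psmb8, Psmb9 and Brd2, none had an unadjusted p under 0.05 or an adjusted p under 0.05 (limma), and log2 fold changes ran from -0.07 to 0.21.

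Other cells of the lung carry more class II than AMs, and their markers were followed in the same samples. For B cells, 10 markers without Cd22, which these samples expressed at 54.0 FPKM and above, summed to 0.261 to 0.722 FPKM in CD44+/+ and 0.260 to 0.394 FPKM in CD44-/- AMs, and the highest value of any of the 10 in a sample was 0.325 FPKM, of Ms4a1. The 16 dendritic cell markers summed to 405 to 439 FPKM in CD44+/+ and 447 to 455 FPKM in CD44-/- AMs, mostly from Naaa and Cd24a. These sums were higher in every CD44-/- sample. Of the 9 tested, Naaa, Ccl22 and Ccl17 were higher at an unadjusted p under 0.05, with log2 fold changes of 0.17, 0.42 and 0.49 (adjusted p = 0.350, 0.524 and 0.619, limma), and Batf3 was lower (-0.26, adjusted p = 0.574). The 3 higher genes had their highest values in CD44-/- replicate 1, at 309, 23.3 and 15.9 FPKM, against 303, 17.8 and 14.0 FPKM in replicate 2 and 299, 18.0 and 10.5 FPKM in replicate 3. Without the 7 most abundant (Naaa, Cd24a, Batf3, Ccl22, Ccl17, Ccr7 and Fscn1, set aside after their levels were seen and holding all 4 of these genes), the other 9 summed to 2.06 to 3.33 FPKM in CD44+/+ AMs. In CD44-/- replicates 1, 2 and 3 they summed to 4.29, 2.72 and 2.17 FPKM. CD44-/- replicate 1 was the lowest CD44-/- sample for the class II chains. The part of B cells and dendritic cells in the class II values was not tested.

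Of 11 markers of monocytes and interstitial macrophages tested, those higher at an unadjusted p under 0.05 included C1qa, C1qc and Ms4a7. C1qa, a complement subunit gene, had 2.08, 1.09 and 1.74 FPKM in CD44+/+ AMs and 3.26, 3.06 and 2.78 FPKM in CD44-/- AMs (log2 fold change 0.89, adjusted p = 0.294, limma). The 16 markers of this list summed to 203 to 245 FPKM in CD44+/+ and 209 to 218 FPKM in CD44-/- AMs, which overlapped. Cd14 and Csf1r made up most of these sums, each with a log2 fold change of -0.11. Without them, a choice made after their levels were seen, the other 14 summed to 25.3 to 27.6 FPKM in CD44+/+ and 29.8 to 31.2 FPKM in CD44-/- AMs, and Ly6c2 was at 0 to 0.263 FPKM. Alveolar type 2 cells also carry class II, and their 9 markers summed to 92.6 to 111 FPKM in CD44+/+ AMs and to 126, 98.6 and 173 FPKM in CD44-/- AMs. Without Napsa and Abca3, also set aside after their levels were seen, the other 7 summed to 14.7 to 25.2 FPKM in CD44+/+ AMs and to 37.9, 23.9 and 94.9 FPKM in CD44-/- AMs. These were highest in CD44-/- replicate 3, whereas the class II chains were highest in replicate 2. Erythroid markers without Bpgm, by contrast, were highest in CD44-/- replicate 2, at 58.1 FPKM against 2.99 and 3.30 FPKM in CD44-/- replicates 1 and 3 and 2.53, 17.9 and 5.75 FPKM in CD44+/+ replicates 1 to 3. The part of these cells in the class II values was not tested.

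The pattern of Cd74, H2-Aa, H2-Ab1 and H2-Eb1 was set against 894 genes outside the members. Each had a standard deviation of at least 0.3 on the log2 scale over the 6 samples. The mean profile of the 4 genes had an r above 0.9 with 21 of them and below -0.9 with 17. Closest were Hr (r = 0.988), Neil3 (0.973), Gabbr1 (0.969), Gen1 (0.956), Sh2d4b (0.955), Ska3 (0.955), Pacsin1 (0.939), Ttll7 (0.938), Rn45s (0.937) and Gm11545 (0.937). Hr had 24.5, 19.3 and 19.3 FPKM in CD44+/+ AMs and 21.9, 34.0 and 29.4 FPKM in CD44-/- AMs. Hr encodes a nuclear corepressor of hair follicles. Neil3 and Gen1 encode enzymes of DNA repair, and Ska3 a protein of the kinetochore. Rn45s is the ribosomal RNA precursor, which selection of mRNA should remove, and had 0.878, 0.573 and 0.798 FPKM in CD44+/+ AMs and 1.39, 3.61 and 2.12 FPKM in CD44-/- AMs. It was thus highest in the same samples as the class II chains, and its part in their values was not tested. By limma the adjusted p of the 10 genes ran from 0.237 to 0.764. With 6 samples and this many genes, such values of r describe the samples only.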

How the data were processed

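RNA from lavage cells of 3 CD44+/+ and 3 CD44-/- samples was sequenced by the authors with paired 42 bp reads from a stranded mRNA kit. Reads were aligned to mm10 with STAR, and the authors deposited FPKM values from Cufflinks. FPKM is normalized by the authors for transcript length and depth, and many values are rounded to 3 significant digits. The same table holds the authors' genotype means and Cuffdiff results, which were not used. Its name and position columns follow another row order than the values (0 rows in which the names match), so values were taken by gene identifier and positions by name.

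Genes whose mean reached 0.5 FPKM (10800 of 24340; 1 row lacked a value) were compared as log2(FPKM + 0.1) with limma 3.58.1 in R 4.3.3 (lmFit, eBayes with trend, two-sided, Benjamini-Hochberg over all genes). The count-based Cuffdiff of the study cannot be rerun on FPKM. The fit was tested on simulated data. Single values and 7 within-sample ratios were compared by exact permutation. Named genes were the members, Cd44 and genes of the pathway and marker lists. Also named were the 10 genes outside the members most correlated with the mean of Cd74, H2-Aa, H2-Ab1 and H2-Eb1. Members and lists were chosen with earlier results of these data known. Same-numbered samples deviated together from their group means across genes (r = 0.212, 0.132 and 0.211), so the replicate number was also fitted as a block. This pairing comes from the data, since no source says that they were collected together. Alternatives were other pseudocounts, filters, scalings, eBayes settings and each sample left out. Shared 42-base windows were counted on the sense strand in GENCODE vM21 transcripts. Without read counts, no counting interval is given. Values of some list genes are not reported here.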

Additional observations from a re-analysis of the deposited data

How the results depend on the processing

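All 9 members kept a positive log2 fold change and an adjusted p above 0.05 under every alternative run. Genes with an adjusted p under 0.05 (limma) numbered 12, and 7 with no filter on low values. Leaving out single samples gave 6 (without CD44-/- replicate 2) to 36 genes (without CD44+/+ replicate 1). The count of members with an unadjusted p under 0.05, 6 as reported, was 1 with robust eBayes and from 1 to 8 with single samples left out, where each omission also lowers the number of samples. With the replicate block it was 5, since H2-DMb1 did not pass, and 9 genes had an adjusted p under 0.05. In the lists, genes with an unadjusted p under 0.05 numbered 3 with the block and 2 without it for class II transcription and for alveolar type 2 cells, 3 and 4 for AM and for dendritic cell markers, and 5 and 4 for monocytes and interstitial macrophages. The block changed no other call of a member, and left Cd44 as the list gene with an adjusted p under 0.05. With no filter, H2-Ob had a log2 fold change of 0.41 (adjusted p = 0.895). A fold change on this scale is understated for genes near 0.1 FPKM, which limits H2-Ob most. The cause of the robust eBayes result was not tested.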

Other observations

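The 7 airway secretory markers summed to 842 to 1402 FPKM in CD44+/+ and 652 to 1135 FPKM in CD44-/- samples. None had an unadjusted p under 0.05 or an adjusted p under 0.05 (limma), and their log2 fold changes ran from -0.71 to -0.07. Markers of T and NK cells summed to 1.51 to 2.87 FPKM in CD44+/+ and 1.16 to 1.89 FPKM in CD44-/- samples. Of 5 neutrophil markers tested, 1 had an unadjusted p under 0.05, and 3 did with the replicate block. It was Csf3r, the receptor of G-CSF (log2 fold change 0.33, adjusted p = 0.499, limma). The other 4 had log2 fold changes of 0.32 for Cxcr2, -0.08 for S100a8, -1.06 for S100a9 and -1.30 for Retnlg, and the median of the 5 was -0.08. The part of these cells in the class II values was not tested.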
